A study of Mus musculus with 48 samples.

Results

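The repeat types described here were the IAP, ETn, MMERVK and ERVB types, the families of mouse endogenous retroviruses of the ERVK class. They were every repeat type in the count table whose name began with IAP, ETn, MMETn, RLTRETN, MMERVK or ERVB. This rule on names, set with earlier results of these data known, gave 56 of 1554 repeat types. The 56 were 25 IAP, 5 ETn, 5 MMERVK and 21 ERVB types, and a type was either a long terminal repeat (LTR) or an internal part, marked by "int" or "I" in its name. Of the 56, 53 had enough reads for the test, and the other 3 (ERVB4_1-LTR_MM, IAPEY5_I-int and ERVB2_1-I_MM-int) held 1, 91 and 60 reads over all libraries.

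The study followed mouse embryonic fibroblasts (MEFs) on their way to induced pluripotent stem cells (iPSCs) under either of 2 polycistronic reprogramming cassettes, MKOS or OKMS, which hold Oct4, Sox2, Klf4 and c-Myc in a different order and also differ in Klf4, the long form in MKOS and a form with a shorter N-terminus in OKMS. Transgenic (Tg) MEFs came from chimeric embryos made with TNG embryonic stem cells (ESCs), a line with a Nanog-GFP reporter. In these ESCs the cassette and a CAG-driven rtTA had been targeted into an intron of Sp3, so cells derived from them carried these alleles. MEFs of chimeric embryos were a mixture, in which the study measured the proportion of Tg cells. That proportion is not known here for the MKOS and OKMS MEF libraries. Tg MEFs were mixed with wild-type (WT) MEFs and cultured with doxycycline, which switches the cassette on, and vitamin C. The sorted populations, labelled with 2N or 3N, were 2NG- cells (CD44 low, ICAM1 low, without Nanog-GFP), 3NG- cells (CD44 low, ICAM1 high, without Nanog-GFP) and 3NG+ cells (the same gate with Nanog-GFP), all of them E-CAD+ except an E-CAD- 2NG- and an E-CAD- 3NG- population of OKMS. The unsorted groups were WT, MKOS and OKMS MEFs, MKOS and OKMS iPSCs grown without doxycycline (-dox) or in 2i medium (inhibitors of MEK and GSK3), the iPSC line D6 with a piggyBac MKOS insertion, the parental TNG ESCs, TNG MKOS and TNG OKMS ESCs that carry the uninduced cassettes, and E14 ESCs. RNA was read at the 5' ends of transcripts (STRT), with 3 libraries for each of 8 sorted populations and 2 libraries for each of the other 12 conditions, 48 in all. Nothing in the labels says that the libraries of a condition came from separate cultures or animals, so p-values measure the spread between these libraries.

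Libraries held 1429717 to 14174725 reads on transcripts, and 14.2% to 33.1% of the reads counted fell on repeats. The 56 types took 0.0913% to 3.63% of the repeat reads. Levels are reads per 1000000 reads on transcripts (RPM), a scale on which 3 reads, the floor for a count of 0, correspond to 0.212 to 2.10 depending on the library. Copies made by PCR were not removed, and the floor covers counting error only. A level is also a mean over all cells of a library, in which fewer transcribing cells and less RNA per cell cannot be told apart. Labels fitted the markers in most respects: Nanog had no read in any MEF library, and Cdh1 (E-CAD) stood at 116 to 182 in the E-CAD+ Nanog-GFP- populations. Cdh1 was not absent from cells sorted as E-CAD-, with 4.24 to 51.5 in 2NG- and 8.59 to 16.1 in 3NG- libraries. Of the sorted libraries, 7 do not enter the published condition averages (replicate 3 of the 6 Nanog-GFP- populations and replicate 2 of OKMS 3NG+), and results that change without them are given both ways. In each of the 6 Nanog-GFP- populations, replicate 3 had the highest summed IAP level.

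LTR retrotransposons of the ERVK class are built like retroviruses, with an LTR at each end and an internal part. In coding elements the internal part encodes Gag and Pol, and reads on it do not show that it codes for protein. The LTR holds the promoter, so a 5'-end read is most likely to fall in it or just downstream. IAP and ETn/MusD elements are among the few families that still move in laboratory mice. In ESCs their chromatin is silenced by TRIM28 (KAP1) and the H3K9 methyltransferase SETDB1, which KRAB zinc finger proteins bring to their targets. DNA methylation by DNMT1 and the DNMT3 enzymes takes over this role in differentiated cells.

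Reads were unevenly spread over the members. IAPLTR1_Mm, the LTR that flanks IAPEz elements, took 70.9% of all IAP reads, and its internal part IAPEz-int took 6.52%. Per kilobase of annotated copies, IAPLTR1_Mm had 524 reads over all libraries against 2.24 for IAPEz-int, whose copies add up to 11883 kb. Next in reads per kilobase came ERVB7_1-LTR_MM with 265 and RLTRETN_Mm, the LTR of ETn elements, with 208. The internal parts of ETn elements followed at 53.6 for MMETn-int and 25.6 for ETnERV-int. Internal parts of MMERVK elements were low on this scale, with 7.37 for MMERVK9C_I-int and 2.62 for MMERVK10C-int. Among the IAP types, the 15 LTRs held 368715 reads and the 10 internal parts 39629. Types of a family share near-identical copies, so reads can be split between them, and reads of both strands were summed.

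**Figure D1:**
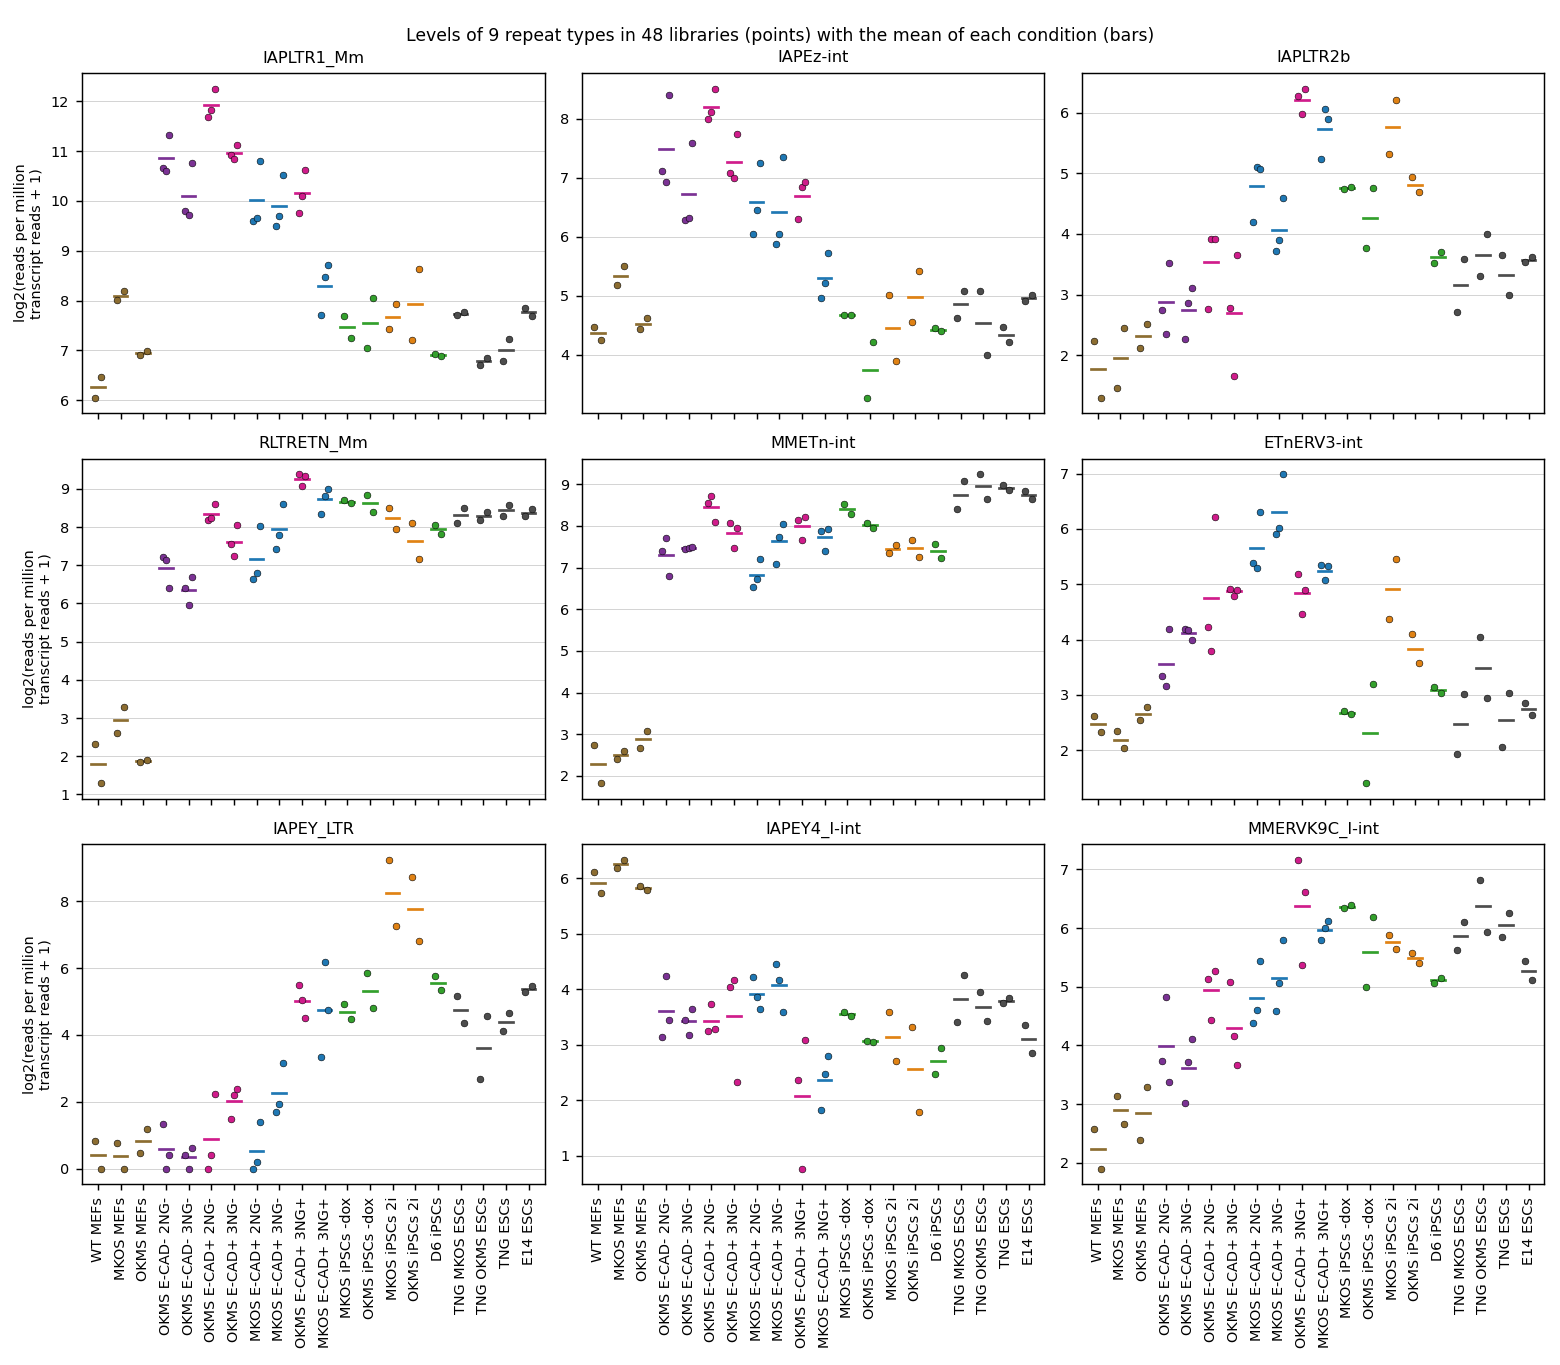
Level of 9 repeat types in each of the 48 libraries, as log2(RPM + 1), RPM being reads per 1000000 reads on transcripts, with the 20 conditions along the horizontal axis and 1 point for each library. IAPLTR1_Mm was highest in OKMS E-CAD+ 2NG- cells, whereas RLTRETN_Mm and MMETn-int were already above the MEFs in the intermediates and stayed above them to the ESCs.

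From MEFs to ESCs, the endpoints of both routes, 24 of the 53 members tested were higher in TNG MKOS and TNG OKMS ESCs than in MKOS and OKMS MEFs and 4 were lower, by edgeR's quasi-likelihood test at an FDR of 0.05. Over all 16729 features tested, 25.6% were higher and 23.5% lower, so the share of members higher stood above that of all features and the share lower below it. The median log2 difference of the members was 1.11, against 0.04 over all features and 0.48 over the other repeat types. Of the ETn types 4 of 5 were higher, of the MMERVK types 4 of 5, of the ERVB types 8 with 1 lower, and of the IAP types 8 with 3 lower. With scaling to repeat reads in place of transcript reads, the counts became 17 higher and 8 lower.

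Of the ETn types, ETnERV3-int (0.64, adjusted p = 0.229) did not pass and ETnERV2-int rose by 2.06, and the other 3 rose further. MMETn-int, an ETn internal part, had levels of 4.30 and 5.10 in MKOS MEFs, 5.38 and 7.44 in OKMS MEFs, 335 and 538 in TNG MKOS ESCs and 603 and 400 in TNG OKMS ESCs. The groups lay far apart, and the log2 difference was 6.35 ± 0.26 (SE; adjusted p = 1.6e-21). RLTRETN_Mm rose by 6.19 ± 0.36 on the log2 scale (adjusted p = 1.5e-17), from 2.60 to 8.86 in the 4 MEF libraries to 276 to 361 in the 4 ESC libraries. ETnERV-int, the internal part of the MusD-like elements, rose by 5.58 ± 0.28 (adjusted p = 3.4e-19). Among the ERVB types, ERVB7_1-LTR_MM had the largest difference, with a log2 value of 6.87 ± 0.35 (adjusted p = 4.5e-19), and stood at 1.11 to 5.22 in those MEFs and 276 to 309 in those ESCs. MMERVK9C_I-int rose by 3.35 ± 0.38 (adjusted p = 1.3e-09) and MMERVK9E_I-int also passed, while MMERVK10C-int, at 6.29 to 51.0 over all 48 libraries, passed no test in any comparison. IAPEY5_LTR, which had no read in those MEFs and 23 in those ESCs, was at least 6.76-fold higher against a floor of 3 reads over the group.

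IAP types went both ways between the endpoints. IAPEY4_I-int, an internal part, had levels of 71.9 and 79.8 in MKOS MEFs and 57.0 and 54.3 in OKMS MEFs, and 6.19 to 18.0 in all ESC libraries. It fell by 2.40 ± 0.39 on the log2 scale (adjusted p = 2.2e-06), and its LTR, IAPEY4_LTR, by 2.68 ± 0.78 (adjusted p = 0.00423). ERVB4_3-LTR_MM and IAPLTR1a_Mm fell by 2.37 and 1.47, calls that 6 of the 8 libraries each ended when left out. By contrast IAPLTR2a2_Mm, IAPLTR2b, IAPLTR2a and IAPLTR2_Mm, LTRs of a second IAP group, rose by 1.60, 1.52, 1.31 and 1.03. IAPLTR1_Mm was not among the members that passed: its levels were 118 to 290 in the MKOS and OKMS MEFs and 104 to 217 in the TNG MKOS and TNG OKMS ESCs.

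**Figure D2:**
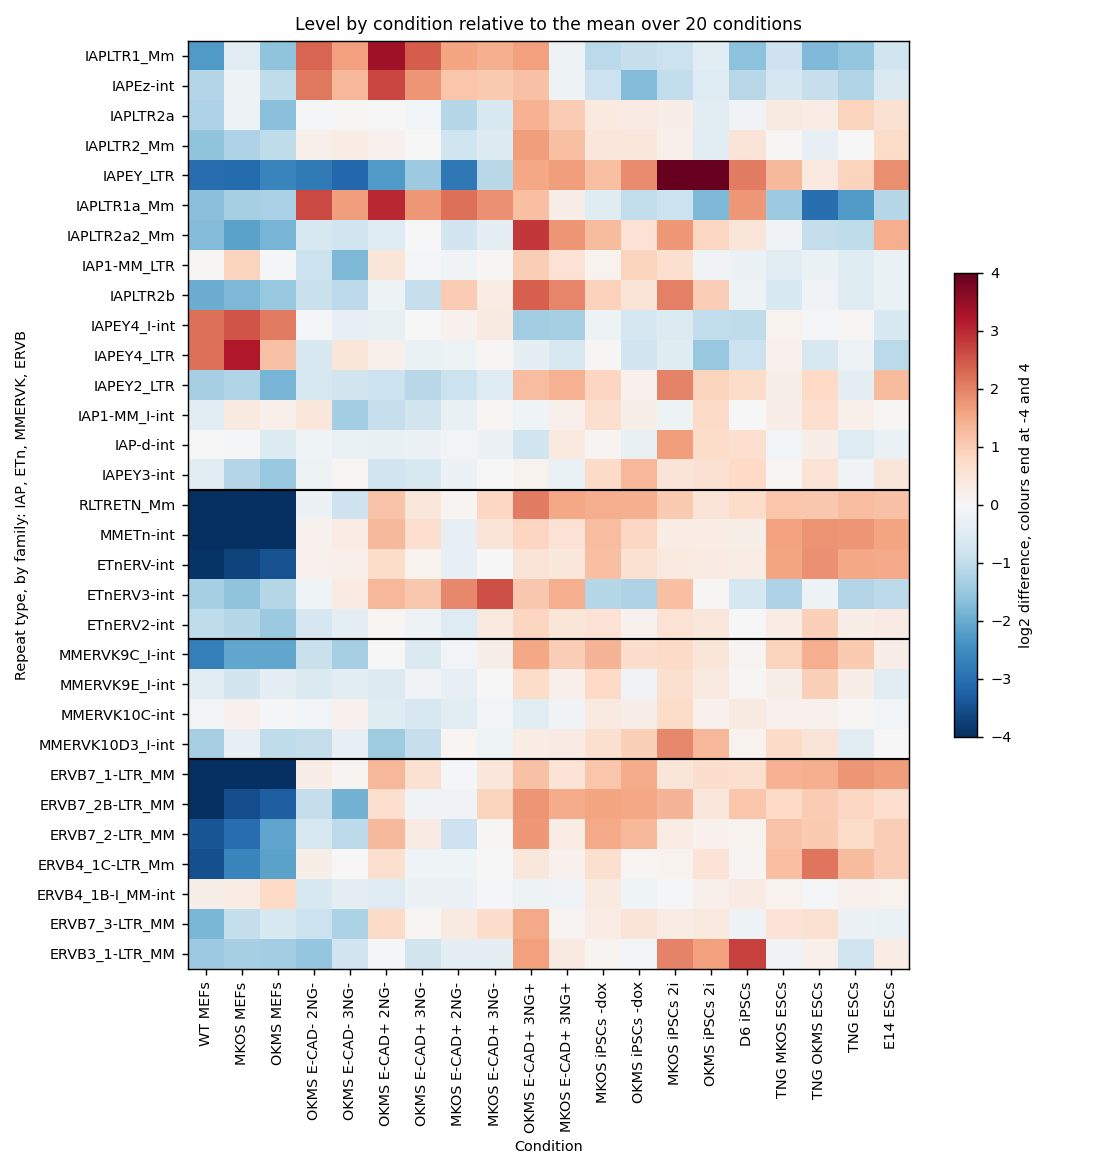
Differences of 31 repeat types in the 20 conditions from each type's own mean over conditions, on a log2 scale with colours ending at −4 and 4. IAPLTR1_Mm, IAPLTR1a_Mm and IAPEz-int were high in the Nanog-GFP- intermediates, whereas RLTRETN_Mm, MMETn-int and ERVB7_1-LTR_MM were lowest in the MEFs.

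From MEFs to the Nanog-GFP- intermediates, the first step of each route, more members were higher than lower. With MKOS, 15 members were higher and 2 lower (16.1% and 14.9% of all features), with a median log2 difference of 1.20. With OKMS in E-CAD+ cells, 16 were higher and 2 lower (16.2% and 16.0%), with a median of 1.52, and in E-CAD- cells 12 were higher and 3 lower (11.6% and 12.0%), with a median of 0.76. Shares higher were thus above the background, and medians over all features were 0 to 0.0098. When members without a read in the MEFs were set to the bound that 3 reads allow, these medians became 0.96, 1.34 and 0.60. The 2 OKMS comparisons share the OKMS MEF libraries. Of the MKOS and OKMS E-CAD+ comparisons, which share no library, 13 members were higher in both, 86.7% of those with MKOS and 81.2% of those with OKMS. The overlap over all features was not counted, so whether the members stand out in this is not known. With scaling to repeat reads the E-CAD- counts became 10 higher and 4 lower.

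By this step 4 of the 5 ETn types had risen with MKOS, 5 in OKMS E-CAD+ and 3 in OKMS E-CAD- cells, and ERVB7_1-LTR_MM, ERVB7_2-LTR_MM and ERVB7_2B-LTR_MM in all of these comparisons. ERVB7_3-LTR_MM and ERVB7_4-LTR_MM passed in none of them. MMETn-int stood at 91.1, 106 and 146 in MKOS 2NG- cells, 135, 212 and 265 in MKOS 3NG- cells, 372, 420 and 271 in OKMS E-CAD+ 2NG- cells and 266, 176 and 246 in OKMS E-CAD+ 3NG- cells. Every one of these libraries lay above every MEF library, and the log2 differences were 4.94 ± 0.34 (adjusted p = 2.9e-14) with MKOS and 5.55 ± 0.34 with OKMS. RLTRETN_Mm rose by 4.81 and 6.67, ETnERV-int by 3.89 and 4.25, and ERVB7_1-LTR_MM by 4.78 and 7.32, with MKOS and OKMS in turn. ERVB7_2B-LTR_MM rose by 4.55 and 4.23. In OKMS E-CAD- cells the same 4 types rose by 4.67, 5.20, 3.88 and 6.44, in the order MMETn-int, RLTRETN_Mm, ETnERV-int and ERVB7_1-LTR_MM. MMERVK10D3_LTR had no read in the MKOS MEFs and 75 reads in the MKOS intermediates, which made it at least 7.44-fold higher. IAPEY4_I-int fell by 2.38, 2.28 and 2.43 with MKOS, OKMS E-CAD+ and OKMS E-CAD-, and stood at 4.0 to 21.0 in all Nanog-GFP- intermediates. Its LTR fell by 3.63 with MKOS, and ERVB4_1B-I_MM-int fell by 1.17 in OKMS E-CAD+ and by 1.45 in OKMS E-CAD- cells, where IAP1-MM_LTR fell by 1.44.

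IAPLTR1_Mm and IAPEz-int formed a different course, high in the intermediates and near MEF levels in ESCs. IAPLTR1_Mm had levels of 118 and 126 in OKMS MEFs, 3277, 3618 and 4885 in OKMS E-CAD+ 2NG- cells and 1929, 1832 and 2237 in OKMS E-CAD+ 3NG- cells. All 6 intermediate libraries lay above the MEF libraries, and the log2 difference was 4.61 ± 0.45 (adjusted p = 1.7e-10). In OKMS E-CAD- cells it stood at 1616, 1551 and 2554 (2NG-) and 893, 844 and 1741 (3NG-), a rise of 3.55 ± 0.42 (adjusted p = 2.7e-08). With MKOS the levels were 256 and 290 in MEFs, 778, 803 and 1797 in 2NG- cells and 721, 832 and 1460 in 3NG- cells. That rise was 1.88 ± 0.38 (adjusted p = 0.000147), and the groups did not overlap here either. IAPEz-int rose by 3.39 ± 0.47 (adjusted p = 2.9e-07) in OKMS E-CAD+ cells, by 2.72 in OKMS E-CAD- cells and by 1.22 with MKOS. The MKOS value for IAPEz-int rested on the third libraries, since without the 7 sorted libraries it was 0.66 (adjusted p = 0.0855). IAPLTR1a_Mm, an LTR related to IAPLTR1_Mm, rose by 3.68 with MKOS, 4.08 in OKMS E-CAD+ and 3.71 in OKMS E-CAD- cells.

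The reads of IAPLTR1_Mm and IAPEz-int did not keep a fixed ratio. IAPLTR1_Mm had 3.96, 6.92 and 5.53 times the reads of IAPEz-int in WT, MKOS and OKMS MEFs, 10.5 to 13.1 times in the Nanog-GFP- intermediates, and 5.43 to 7.68 times in the ESCs, as condition means. High ratios were not limited to the intermediates, since OKMS iPSCs without doxycycline had the highest, 15.0, and OKMS 3NG+ cells and MKOS iPSCs in 2i had 11.3 and 11.5. The 2 libraries of MKOS iPSCs in 2i lay far apart, at 5.49 and 17.4. Over the 48 libraries their levels on the log2 scale nevertheless had a Pearson r of 0.96, given as a description, since libraries share conditions and depth. MMETn-int was most like ETnERV-int (r = 0.99) and ERVB7_1-LTR_MM (0.97), also over the 48 libraries. Families here follow names alone, so whether ERVB7_1-LTR_MM and MMETn-int belong to the same elements was not examined. Next to IAPEz-int, the members most like IAPLTR1_Mm over the 20 condition means were IAPLTR1a_Mm (0.84) and ETnERV3-int (0.68).

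**Figure D3:**
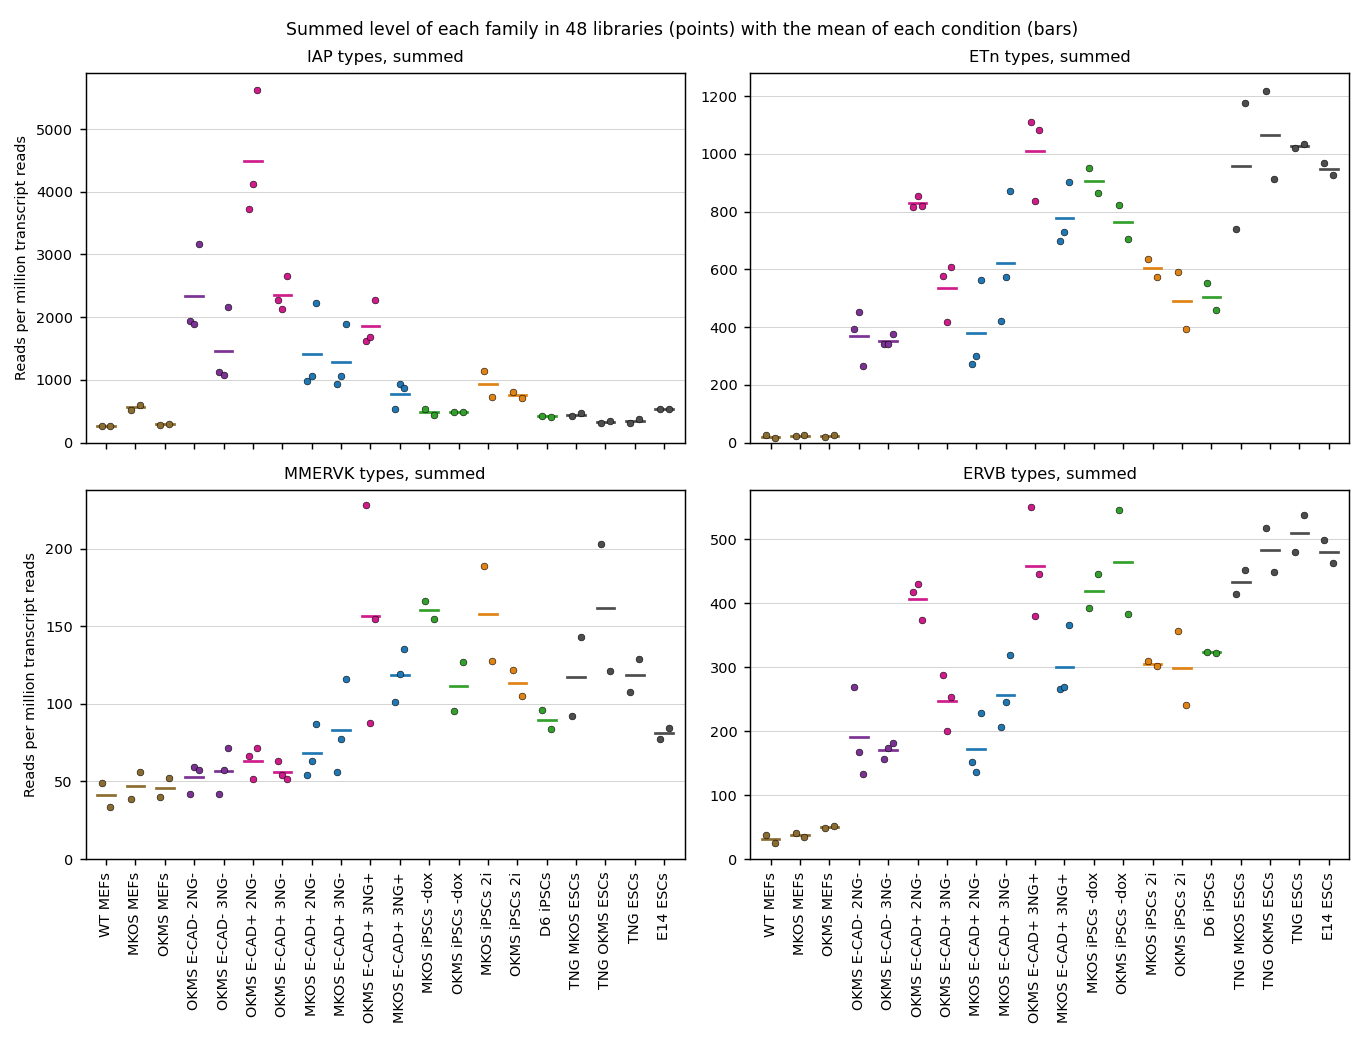
Summed level of the 4 families in each condition, in RPM, with 1 point for each library. The IAP sum peaked in OKMS E-CAD+ 2NG- cells, at 3723, 4121 and 5623, and the ETn sum was lowest in the MEFs, at 14.8 to 26.4.

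In sums over the families, which are given as descriptions, IAP reads made up 261 RPM in WT MEFs, 564 in MKOS MEFs and 289 in OKMS MEFs. OKMS E-CAD+ 2NG- cells reached 4489 ± 1002 (SD, n = 3), and OKMS 3NG+ cells stood at 1855, against 1418 in MKOS 2NG- and 777 in MKOS 3NG+ cells. The 4 ESC conditions had 324 to 532. ETn reads did not return to MEF levels, with 829 in OKMS E-CAD+ 2NG- cells, 379 in MKOS 2NG- cells, 1010 in OKMS 3NG+ cells and 1067 in TNG OKMS ESCs. In iPSCs without doxycycline the ETn sums were 951 and 864 with MKOS and 824 and 704 with OKMS. The ETn sums of single ESC libraries ran from 738 to 1219. MMERVK sums stayed low, from 41.5 to 47.2 in MEFs to 162 in TNG OKMS ESCs, and ERVB sums went from 31.7 to 49.7 in MEFs to 509 in TNG ESCs.

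Between the cassettes, E-CAD+ Nanog-GFP- cells of MKOS and OKMS were set side by side in the same gates. Here 8 members were lower with MKOS and 1 was higher, 4 of the 8 being IAP, 2 ETn and 2 ERVB types. Of all features 4.97% were lower and 6.44% higher with MKOS. The member median was −0.18 and that of all features 0.03. IAPLTR1_Mm was lower by 1.52 on the log2 scale (−1.52 ± 0.24, adjusted p = 2.1e-05), and none of the 6 MKOS libraries reached the lowest of the 6 OKMS libraries, 1832, the highest MKOS library being at 1797. IAPEz-int, at 57.5 to 162 with MKOS and 127 to 365 with OKMS, overlapped between the cassettes and differed by −1.28 ± 0.27 (adjusted p = 0.0009). MMETn-int differed by −1.01 ± 0.17 (adjusted p = 4.45e-05) and ETnERV-int by −0.71 ± 0.18 (adjusted p = 0.00762). ERVB7_2-LTR_MM, another ERVB7 LTR, had levels of 8.77, 9.59 and 11.7 in MKOS 2NG- and 12.7, 18.4 and 26.0 in MKOS 3NG- cells, and of 40.2, 58.3 and 43.7 in OKMS 2NG- and 30.3, 21.9 and 18.1 in OKMS 3NG- cells. The 2NG- libraries of the cassettes lay apart and the 3NG- libraries overlapped, and over both gates the difference was −1.38 ± 0.28 (adjusted p = 0.000637). ERVB7_1-LTR_MM differed by −0.88 ± 0.21 (adjusted p = 0.0043), and IAPLTR2a by −0.99 ± 0.26 (adjusted p = 0.00888).

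IAPLTR2b was the member that was higher with MKOS, by 1.19 ± 0.31 (adjusted p = 0.00888). Its levels were 17.3, 33.4 and 32.7 in MKOS 2NG- cells and 12.2, 14 and 23.1 in MKOS 3NG- cells, against 5.79, 14.2 and 14.1 and 5.89, 2.14 and 11.5 in the OKMS gates. Within each gate the cassettes did not overlap, while the lowest MKOS 3NG- libraries lay below the highest OKMS 2NG- libraries. IAPLTR2_Mm differed by −0.90 ± 0.27 (adjusted p = 0.0254) with all libraries and by −0.67 (adjusted p = 0.193) without the 7 sorted libraries, and IAPLTR2a by −0.69 (adjusted p = 0.0811) without replicate 3 of OKMS E-CAD+ 2NG- cells. Cell state moved with this comparison. The 10 fibroblast markers, none of them at 0 in a whole condition, summed to 398 to 803 in MKOS 2NG- and 556 to 976 in MKOS 3NG- libraries, against 108 to 238 and 161 to 414 in the OKMS gates. The 10 pluripotency markers summed to 3080 to 4195 and 8391 to 10637 with MKOS, against 898 to 3338 and 1687 to 5690 with OKMS. Their part in the repeat differences was not tested.

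**Figure D4:**
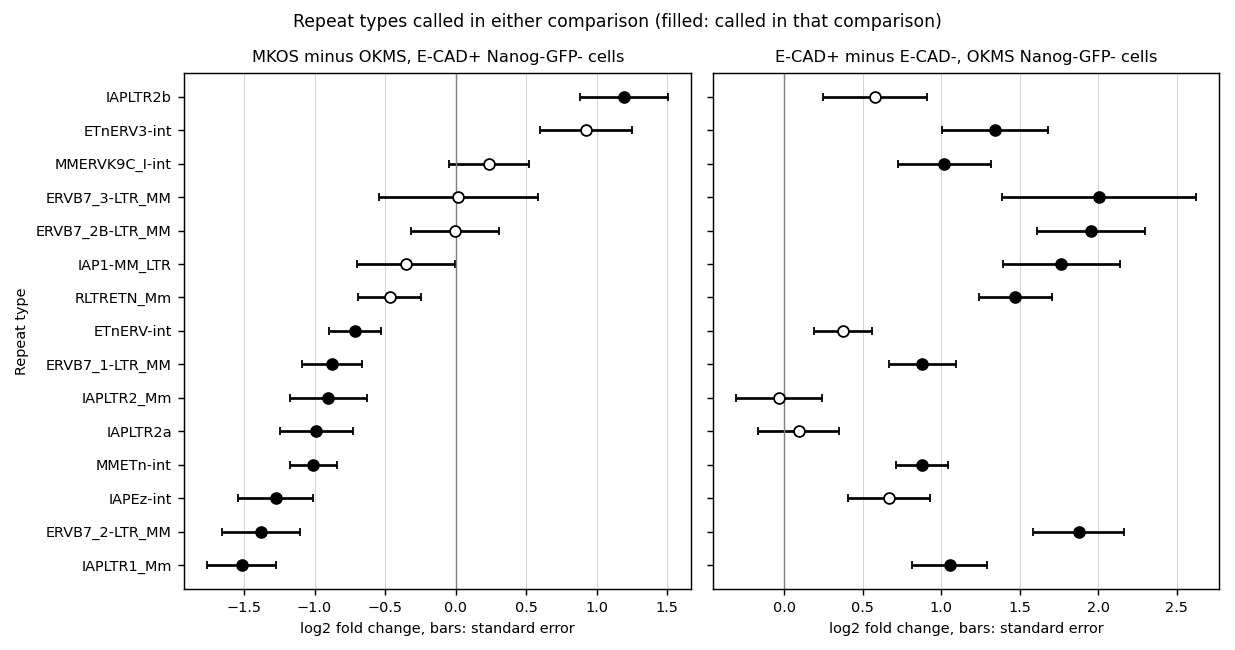
Log2 differences of 15 repeat types between the cassettes (MKOS minus OKMS, E-CAD+ Nanog-GFP- cells) and between E-CAD+ and E-CAD- cells of OKMS, with standard errors as bars and filled points for those at an FDR of at most 0.05. IAPLTR1_Mm lay at −1.52 in the first comparison and 1.05 in the second, and IAPLTR2b was the filled point above 0 in the first.

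Within OKMS, 10 members were higher in E-CAD+ than in E-CAD- Nanog-GFP- cells and none was lower, against 4.66% and 2.34% of all features. At an unadjusted p under 0.05 there were 16. The 10 comprised 2 IAP, 3 ETn, 1 MMERVK and 4 ERVB types, and the member median was 0.38 against 0 over all features. ERVB7_2-LTR_MM stood at 14.8, 14.4 and 5.87 in E-CAD- 2NG- cells and 6.28, 11.9 and 7.35 in E-CAD- 3NG- cells, below each of the 6 E-CAD+ libraries given above. Its difference was 1.87 ± 0.29 (adjusted p = 1.7e-05). ERVB7_2B-LTR_MM, a close relative, had 8.73, 18.2, 5.87, 5.45, 4.18 and 6.26 in the E-CAD- libraries and 39.5, 30.9, 37.0, 19, 19 and 21.7 in the E-CAD+ libraries, again with no overlap, and differed by 1.96 ± 0.34 (adjusted p = 0.000119). RLTRETN_Mm, at 61.0 to 148 in E-CAD- and 151 to 389 in E-CAD+ libraries, was higher by 1.47 ± 0.23 (adjusted p = 1.9e-05). IAP1-MM_LTR, an LTR of another IAP group, was higher by 1.76 ± 0.37 (adjusted p = 0.00151), and IAPLTR1_Mm by 1.05 ± 0.24 (adjusted p = 0.00311).

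This comparison shares the OKMS E-CAD+ libraries with the cassette comparison. In the cassette and E-CAD comparisons in turn, the values were −1.01 and 0.88 for MMETn-int, −0.88 and 0.88 for ERVB7_1-LTR_MM, −1.38 and 1.87 for ERVB7_2-LTR_MM and −1.52 and 1.05 for IAPLTR1_Mm. MMERVK9C_I-int (1.02 ± 0.30, adjusted p = 0.026) was the MMERVK type that passed for E-CAD, a call lost when any of 6 of the 12 libraries was left out. Without the 7 sorted libraries, ERVB7_3-LTR_MM went from 2.01 (adjusted p = 0.0391) to 1.28 (adjusted p = 0.424), ERVB7_1-LTR_MM to 0.68 (adjusted p = 0.10) and ETnERV3-int from 1.34 (adjusted p = 0.00839) to 0.82 (adjusted p = 0.194).

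The change from MEFs was itself compared between the cassettes as an interaction. For 4 members the MKOS change was lower than the OKMS change, and for none higher (0.604% and 0.783% of all features). At an unadjusted p under 0.05 there were 7 members. The changes differed by −2.73 ± 0.49 for IAPLTR1_Mm (adjusted p = 0.00121) and −2.53 ± 0.56 for ERVB7_1-LTR_MM (adjusted p = 0.0104). For IAPLTR2a they differed by −2.53 ± 0.53 (adjusted p = 0.00665) and for IAPEz-int by −2.17 ± 0.55 (adjusted p = 0.0278). Of these, IAPLTR2a did not rise with MKOS (−0.74, adjusted p = 0.105 by edgeR), while it rose by 1.78 with OKMS. In these types the MKOS MEFs also stood above the OKMS MEFs, with 256 and 290 against 118 and 126 for IAPLTR1_Mm, and 22.2 and 45.2 against 13.4 and 10.1 for IAPLTR2a. WT MEFs, with no cassette, had 65.4 and 87.5 for IAPLTR1_Mm and 20.3 and 12.2 for IAPLTR2a. Without replicate 2 of the OKMS MEFs 1 of the 4 members passed. IAPLTR1_Mm passed with any of the 16 libraries left out.

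The ICAM1 gate, by which 3NG- cells are taken to be further along than 2NG- cells, separated no member when the E-CAD+ Nanog-GFP- cells of both cassettes were pooled. With edgeR 0 members were higher and 0 lower (0.323% and 0.00598% of all features), 6 had an unadjusted p under 0.05, and DESeq2 passed 0. IAPLTR1_Mm had the value nearest to the threshold, −0.65 ± 0.24 (adjusted p = 0.396). In OKMS its 3 libraries of 3NG- cells, at 1832 to 2237, lay below the 3 of 2NG- cells, at 3277 to 4885, whereas in MKOS the gates overlapped, and the gate was not tested within a cassette.

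With the gain of Nanog-GFP, the 4 IAPLTR2 types and IAPEY_LTR were higher on both routes. In MKOS, 5 members were higher in 3NG+ than in 3NG- cells and 2 lower, all of them IAP types (0.777% and 1.03% of all features). In OKMS, 12 were higher and none lower (3.54% and 3.07%), namely 6 IAP, 2 ETn, 2 MMERVK and 2 ERVB types, and 21 had an unadjusted p under 0.05. All 5 members higher in MKOS were among the 12 in OKMS (41.7% of these), and these comparisons share no library. The same overlap was not counted over all features. The member medians were 0.48 with MKOS and 1.27 with OKMS, against 0.37 and 0.45 over the other repeat types. Over all features the medians were −0.015 and −0.023. With scaling to repeat reads, the counts became 5 higher and 4 lower in MKOS and 9 higher and 2 lower in OKMS.

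IAPLTR2a2_Mm had levels of 10.6, 9.05 and 32.3 in OKMS 3NG- cells and 159, 93.0 and 131 in OKMS 3NG+ cells. In MKOS it had 5.14, 9.44 and 24.7 before and 34.1, 76.8 and 73.4 after the gain of Nanog-GFP, without overlap on either route. The differences were 3.10 ± 0.54 (adjusted p = 0.000224) and 2.45 ± 0.53 (adjusted p = 0.0073). IAPLTR2b went from 5.89, 2.14 and 11.5 to 76.4, 62.3 and 83.4 in OKMS (3.72 ± 0.48, adjusted p = 2.0e-06), and rose by 1.91 ± 0.44 in MKOS (adjusted p = 0.0124). IAPLTR2_Mm rose by 1.96 and 1.98 and IAPLTR2a by 1.76 and 1.85, in OKMS and MKOS in turn. IAPEY_LTR, an LTR of the IAPEY group at no more than 7.88 in any Nanog-GFP- intermediate, reached 44.0, 32.2 and 21.7 in OKMS 3NG+ and 9.04, 72.1 and 26.0 in MKOS 3NG+ cells, rises of 3.64 ± 0.81 (adjusted p = 0.00389) and 3.26 ± 0.76 (adjusted p = 0.0149).

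IAPLTR1_Mm went down at the same step in MKOS, from 721, 832 and 1460 in 3NG- to 209, 352 and 417 in 3NG+ cells, with no overlap (−1.42 ± 0.34, adjusted p = 0.0187). In OKMS it was at 1929, 1832 and 2237 before and 865, 1099 and 1576 after, and did not pass. The other member lower in MKOS was IAPEY4_I-int (−1.71 ± 0.46, adjusted p = 0.0416), a call lost on leaving out any of 5 of the 6 libraries, and that of IAPLTR1_Mm was lost for 3 of the 6. The MKOS calls of IAPEY_LTR, IAPLTR2a2_Mm and IAPLTR2b were each lost for 3 of the 6 as well, with adjusted p up to 0.213, 0.0979 and 0.108, and those of IAPLTR2_Mm and IAPLTR2a for none. Without replicate 2 of MKOS 3NG+ cells, 2 members passed in MKOS in place of 7. IAPEY2_LTR (3.03 ± 0.74, adjusted p = 0.00861), MMERVK9C_I-int (2.42 ± 0.42, adjusted p = 0.000169) and RLTRETN_Mm (1.81 ± 0.33, adjusted p = 0.000327) rose in OKMS. A direct test of the difference between the cassettes in this step passed no member with edgeR (0 larger and 0 smaller with MKOS, 0.0120% and 0.0120% of all features) or with DESeq2, and 5 had an unadjusted p under 0.05. IAPLTR2b was nearest, at −1.80 (adjusted p = 0.436).

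In 3NG+ cells 3 members were lower with MKOS than with OKMS and none higher (0.347% and 0.329% of all features), 10 members having an unadjusted p under 0.05. All 3 were also lower with MKOS in the Nanog-GFP- intermediates, where they were 37.5% of the 8, and the 2 comparisons share no library. How often all features repeat a difference in this way was not counted. IAPLTR1_Mm differed by −2.0 ± 0.35 (adjusted p = 0.00127), ERVB7_2-LTR_MM by −1.60 ± 0.39 (adjusted p = 0.0377) and IAPEz-int by −1.53 ± 0.38 (adjusted p = 0.0439). The calls of ERVB7_2-LTR_MM and IAPEz-int were each lost for 5 of the 6 libraries left out in turn, and that of IAPLTR1_Mm for none. Without replicate 1 of MKOS 3NG+ cells, 1 member passed.

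From 3NG+ cells to iPSCs without doxycycline, a step at which doxycycline was withdrawn, 6 members were lower, with none higher (1.95% and 1.20% of all features), 13 having an unadjusted p under 0.05. Of these 5 were IAP types. IAPLTR1_Mm fell by 1.78 ± 0.28 on the log2 scale (adjusted p = 7.24e-05), to 206 and 150 in MKOS and 131 and 263 in OKMS iPSCs. IAPEz-int fell by 1.88 ± 0.32 (adjusted p = 0.000242), and IAPLTR2b, which had risen with Nanog-GFP, by 1.54 ± 0.35 (adjusted p = 0.00686). ETnERV3-int, an ETn internal part, fell furthest, by 2.69 ± 0.42 (adjusted p = 4.9e-05). It had levels of 35.3, 21.0 and 28.6 in OKMS 3NG+ and 39.5, 32.6 and 39.1 in MKOS 3NG+ cells, and of 5.50 and 5.32 in MKOS and 1.65 and 8.19 in OKMS iPSCs. The groups did not overlap, and the highest condition mean of ETnERV3-int was that of MKOS 3NG- cells, with libraries at 58.7, 63.4 and 126. IAPLTR1a_Mm (−1.64 ± 0.43, adjusted p = 0.0229) and IAPLTR2a2_Mm (−1.45 ± 0.41, adjusted p = 0.0415) were lower too, though 5 and 8 of the 10 libraries each ended the call when left out.

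Against TNG ESCs with the same cassettes, iPSCs had 2 members higher and none lower (1.18% and 0.263% of all features), with 11 at an unadjusted p under 0.05. IAPLTR1a_Mm was at 7.47 and 8.52 in MKOS and 5.98 and 4.81 in OKMS iPSCs, and at 3.33 and 3.78 in TNG MKOS and 0.671 and 0.437 in TNG OKMS ESCs. The groups did not overlap, and it differed by 2.37 ± 0.54 (adjusted p = 0.0126). IAPLTR2a2_Mm differed by 1.73 ± 0.45 (adjusted p = 0.0386). Without replicate 2 of TNG MKOS ESCs neither passed. In E14 against TNG ESCs 0 members passed in either direction with edgeR (0.0299% of all features higher and 0% lower), 6 had an unadjusted p under 0.05, and DESeq2 passed 1. IAPLTR2a2_Mm had the smallest p of these, with 51.1 and 46.5 in E14 against 7.78 and 8.19 in TNG ESCs, which gave 2.52 on the log2 scale (adjusted p = 0.168).

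In 2i medium 2 members were higher and 2 lower than in iPSCs without doxycycline (1.79% and 2.32% of all features). IAPEY_LTR was the clearest, with 29.1 and 21.1 in MKOS and 56.5 and 27.1 in OKMS iPSCs, and 605 and 151 in MKOS and 420 and 110 in OKMS iPSCs in 2i. All 4 libraries in 2i lay above the 4 others and above every other library of the series, and the difference was 3.16 ± 0.62 (adjusted p = 0.00126), a call that no left-out library ended. ETnERV3-int was higher by 1.90 ± 0.43 (adjusted p = 0.00561), while ERVB7_2-LTR_MM was lower by 1.34 (−1.34 ± 0.34, adjusted p = 0.0133) and MMETn-int by 0.85 (−0.85 ± 0.21, adjusted p = 0.00953). The call of ERVB7_2-LTR_MM was lost for 4 of the 8 libraries left out, and those of ETnERV3-int and MMETn-int for 2 each. Without the 7 sorted libraries, which add to the shared estimate of spread alone here, 2 were higher and 5 lower, and without replicate 2 of MKOS iPSCs in 2i, 2 members passed.

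Genes of the silencing machinery were read from the same libraries. Of 58 genes on the list (TRIM28 and its partners, H3K9 methyltransferases, histone H3.3 chaperones, DNA methyltransferases and TET enzymes, and restriction factors), 55 were tested. From MEFs to ESCs 38 were higher and 3 lower (background 25.6% and 23.5%). From MEFs to intermediates, 24 were higher and 2 lower with MKOS (16.1% and 14.9% of all features), 28 and 1 with OKMS E-CAD+ (16.2% and 16.0%), and 20 and 1 with OKMS E-CAD- (11.6% and 12.0%). Trim28, the corepressor of KRAB zinc finger proteins, had means of 118 to 127 in the MEFs, 168 to 369 in the Nanog-GFP- intermediates, 478 and 589 in OKMS and MKOS 3NG+ cells and 567 to 1144 in the ESCs. It rose by 0.99 ± 0.23 in MKOS and 0.93 ± 0.23 in OKMS E-CAD+ intermediates and by 2.81 ± 0.20 from MEFs to ESCs. Dnmt3b, a de novo methyltransferase, rose by 5.12, 6.19 and 7.16 and Tet1, which oxidises methylated cytosine, by 4.24, 3.57 and 6.28 in these comparisons, taken in that order. Setdb1 rose by 0.80, 1.32 and 1.60 and Dnmt1, the maintenance methyltransferase, by 1.04, 1.16 and 1.52. Dnmt3l and Tex19.1, a germline gene that limits retrotransposons, had at most 0.557 and 0.443 in any MEF library and at least 277 and 31.8 in the TNG MKOS and TNG OKMS ESCs. The genes that fell were Mbd1 (−1.67), Suv39h1 (−1.37) and H3f3b (−0.51) from MEFs to ESCs, H3f3a (−1.02) and H3f3b (−0.68) with MKOS, Ehmt2 (−0.80) in OKMS E-CAD+ and 2810474O19Rik (−1.24) in OKMS E-CAD- cells.

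Between the cassettes, 4 of the 55 silencing genes were higher and 5 lower with MKOS, against 6.44% and 4.97% of all features. Dnmt3l, the cofactor of de novo methylation, was higher by 2.11 ± 0.40 (adjusted p = 0.000281), Zfp57, which guards imprints, by 1.51, Zfp809 by 0.94 ± 0.25 (adjusted p = 0.0103) and Smarcad1 by 0.67. Dnmt3b was lower by 2.02 (−2.02 ± 0.42, adjusted p = 0.000942), and Asf1a, H3f3a and Cbx1 differed by −0.83, −0.76 and −0.64. Zfp809 had means of 27.0 and 33.1 in MKOS 2NG- and 3NG- cells and of 14.7 and 14.5 in the OKMS E-CAD+ gates, and 12.6 in both MKOS and OKMS MEFs. Trim28 (0.02, adjusted p = 0.996) and Setdb1 (0.26, adjusted p = 0.384) did not pass. Between E-CAD+ and E-CAD- cells of OKMS, 6 were higher and none lower (4.66% and 2.34% of all features), 3 of them by more than 3 on the log2 scale: Dnmt3l (3.30), Tex19.1 (3.10) and Dnmt3b (3.05). Apobec3, a restriction factor, was higher by 1.05, 2810474O19Rik by 0.93 and Zfp57 by 0.75.

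**Figure D5:**
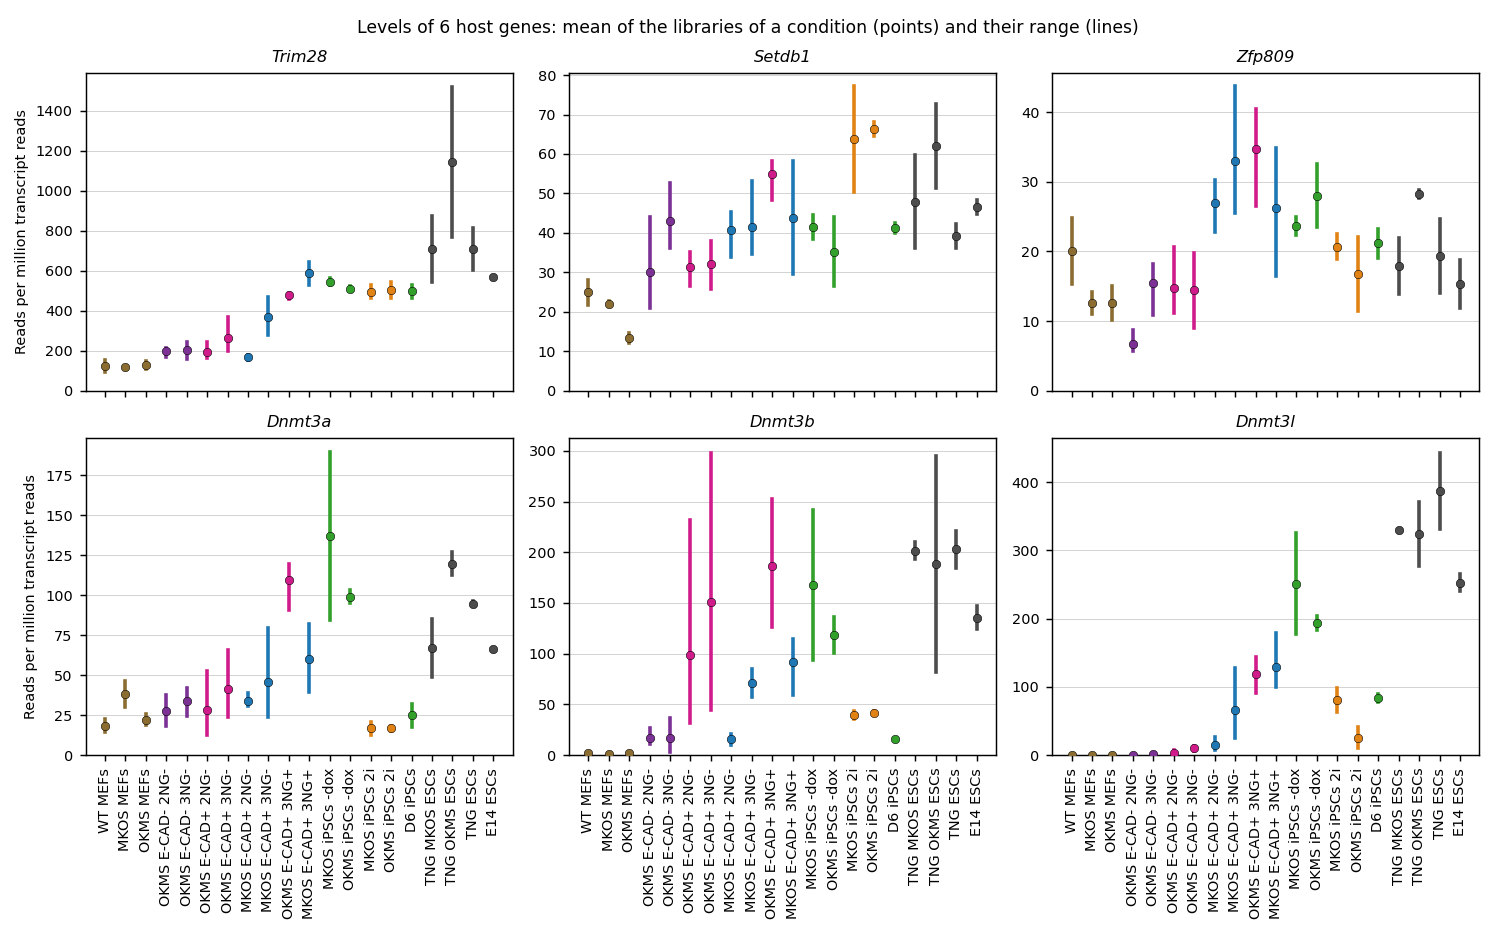
Levels of 6 silencing genes (Trim28, Setdb1, Zfp809, Dnmt3a, Dnmt3b and Dnmt3l) in the 20 conditions, in RPM, with means as points and the range of the libraries as lines. Trim28 rose in steps from the MEFs to the ESCs, while Dnmt3a, Dnmt3b and Dnmt3l were lower in 2i medium than in iPSCs without doxycycline.

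At the ICAM1 gate 2 silencing genes were higher in 3NG- cells and none lower (0.323% and 0.00598% of all features), Trim28 (0.72, adjusted p = 0.0171) and Dnmt3l (1.69, adjusted p = 0.0411). With Nanog-GFP 4 were higher and 1 lower in MKOS (background 0.777% and 1.03%) and 17 higher and 1 lower in OKMS (3.54% and 3.07%). Trim28 rose in both (0.85 and 1.05), Suv39h1, an H3K9 methyltransferase, fell in both, by 1.91 and 1.98, and Hdac2 (1.07), Hells (0.82) and Uhrf1 (0.72) passed in MKOS. In OKMS the largest rises were those of Dnmt3l (3.72), Tex19.1 (2.67), Tet1 (1.67), Dnmt3a (1.62) and 2810474O19Rik (1.55), and Zfp809 (1.46) and Setdb1 (0.97) also passed. None of the 55 passed between the cassettes in 3NG+ cells, from 3NG+ cells to iPSCs, between iPSCs and ESCs or between E14 and TNG ESCs, with 6, 7, 7 and 6 at an unadjusted p under 0.05 by edgeR. In 2i medium none was higher and 3 were lower (1.79% and 2.32% of all features): Dnmt3a fell by 2.92 ± 0.37 (adjusted p = 1.5e-06), from means of 137 and 99.2 to 16.6 in both MKOS and OKMS iPSCs, Dnmt3l by 2.39 ± 0.46 (adjusted p = 0.00103) and Dnmt3b by 1.90 ± 0.51 (adjusted p = 0.0233). Whether any of these changes bears on the repeats was not tested.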

How the data were processed

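The authors deposited 1 table of raw read counts per transcript and per repeat type for 48 STRT libraries. Reads had been aligned with Bowtie (0.12.7 in the submitters' processing notes), which name mm10, whereas the study's methods name mm9; no coordinates were used. All sample columns were matched to labels (unused columns: 0).

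Transcripts and repeat types were tested together with edgeR 4.0.16 (R 4.3.3) by glmQLFit and glmQLFTest, with 1 coefficient for each of 20 conditions, library size equal to the reads on transcripts (1429717 to 14174725), TMM factors from transcripts, the default filter on low counts and Benjamini-Hochberg adjustment over 16729 features. A feature passed at an FDR of at most 0.05. Standard errors were the absolute log2 difference divided by the square root of F. Libraries left out in turn reused the trended dispersion. DESeq2 1.42.0 was an alternative, as were other scalings, no filter, the compared libraries alone, the replicate number as a block and leaving out the 7 sorted libraries that the study did not average. The pipeline was tested on simulated data.

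The members and gene lists were chosen with earlier results of these data known. Named in each comparison were the 3 types with most reads in each family and up to 5 members with the largest differences in each direction, with further ones that passed. For silencing genes these were chosen among up to 5 in each direction and Trim28, Setdb1, Dnmt1, Dnmt3a, Dnmt3b, Dnmt3l and Zfp809. 1 gene that this rule would name is not reported here.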

Additional observations from a re-analysis of the deposited data

Results flagged for a closer look

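For 4 repeat types the rise from MEFs to E-CAD+ Nanog-GFP- intermediates differed between the cassettes by the interaction test: IAPLTR1_Mm by −2.73, ERVB7_1-LTR_MM by −2.53, IAPLTR2a by −2.53 and IAPEz-int by −2.17 on the log2 scale (MKOS minus OKMS), with 1 to 5 members passing as single libraries were left out.

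The D6 iPSC line, which has no matched control and entered no comparison, lay above all 16 other iPSC and ESC libraries in 3 members. The share of all features that lie apart in this way was not counted, so these members are given as a description. IAPLTR1a_Mm had a mean of 41.0 RPM in D6 (34.4 and 47.5), against 0.437 to 8.52 in the others (median 3.55). ERVB4_2-LTR_MM had a mean of 13.0 (7.77 and 18.2, against 0 to 7.26) and ERVB3_1-LTR_MM a mean of 18.5 (14.2 and 22.9, against 0 to 11.7). The ratio of IAPLTR1a_Mm to IAPLTR1_Mm reads was 0.343 in D6 and 0.00513 to 0.0476 in the other 19 conditions.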

How the results depend on the processing

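No direction was reversed under any alternative. Of the 135 differences of named members, 135 stayed on their side of the threshold with DESeq2's Wald test, 133 with DESeq2's size factors, 134 with scaling to transcripts and repeats, 120 with scaling to repeats alone, 132 without a filter, 117 of 134 with the compared libraries alone, 126 without the 7 sorted libraries, and 986 of 1156 with 1 library left out. Counts of members that moved were as follows. Without a filter they were 3 for ICAM1, 11 for Nanog-GFP in MKOS, 5 for the cassettes in 3NG+ cells, 4 for iPSCs against ESCs and 1 for E14. Scaling to repeats alone gave 1 for the cassettes in 3NG+ cells and 1 for iPSCs against ESCs. It shifted the median of all features by −0.49 from MEFs to ESCs, 0.16 from MKOS MEFs, −0.27 from OKMS MEFs to E-CAD- cells, 0.17 for E-CAD, −0.11 for ICAM1, −0.42 and −0.59 for Nanog-GFP in MKOS and OKMS, 0.16 for the cassettes in 3NG+ cells, −0.35 for E14, and 0.26 and 0.17 for the interactions with stage and Nanog-GFP. DESeq2's size factors shifted it by −0.15, −0.14 and −0.12 from MEFs to ESCs, MKOS and OKMS E-CAD+ cells. Without the 7 sorted libraries 7 passed in 2i and 1 for E14, and with the compared libraries alone 1 for iPSCs against ESCs and 1 for E14. DESeq2's Wald test gave 1 for E14. Counted against the reads on transcripts and repeats together, the ERVB sum in TNG OKMS ESCs was 389. The cause was not tested.

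With each library left out in turn, counts ran from 19 to 27 for MEFs to ESCs, 14 to 18, 14 to 19 and 10 to 17 for MEFs to MKOS, OKMS E-CAD+ and OKMS E-CAD- intermediates, 8 to 10 for the cassettes, 7 to 11 for E-CAD, 0 to 1 for ICAM1, 2 to 8 and 9 to 13 for Nanog-GFP in MKOS and OKMS, 1 to 3 for the cassettes in 3NG+ cells, 4 to 8 for 3NG+ cells to iPSCs, 2 to 5 for 2i, 0 to 2 for iPSCs against ESCs, 0 to 0 for E14, and 1 to 5 and 0 to 0 for the interactions with stage and Nanog-GFP. Sums over families ran from 449 to 517 for ERVB, 914 to 1219 for ETn, 121 to 203 for MMERVK and 3922 to 4872 for IAP.

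Sorted libraries with the same replicate number were more alike: 20 of 24 were closest to their own number. Deviations had a mean correlation of 0.0911 for pairs with the same number against −0.0454 for different numbers. Not every pair shared this, since 28 of 84 pairs with the same number were correlated over 0.1. What a number stands for is not known here, and the main fit had no term for it. With the replicate block 130 of the 135 named differences stayed on their side, and 1 member passed for E14. The 5 lost were IAPLTR2a2_Mm from MKOS MEFs (1.18, adjusted p = 0.0632), IAPLTR2_Mm from OKMS MEFs to E-CAD+ (1.02, adjusted p = 0.0700) and E-CAD- cells (1.10, adjusted p = 0.0624), and IAPLTR1a_Mm (−1.15, adjusted p = 0.0686) and IAPLTR2a2_Mm (−1.11, adjusted p = 0.0562) from 3NG+ cells to iPSCs.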
